A study of Mus musculus with 8 samples.

Results

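The regions described here are m6A peaks made of several blocks on the genome. They are the rows with a block count of 2 or more in the authors' 2 deposited peak tables, 49 of 116 peaks in the comparison of myocardial infarction (MI) with sham and 223 of 465 peaks in the comparison of aavFto with aavgnp, 272 of 581 in all. The rule used the block count alone and no measured change, and rows without a gene ID were kept (1 and 3 of these peaks). Left ventricle of C57BL/6 mice of WT genotype was studied 1 week after surgery, and that time is also given for the sham hearts. MeRIP-seq, in which fragmented poly(A)-selected RNA is captured by an antibody to N6-methyladenosine (m6A) and sequenced beside its input, gave 1 input and 1 MeRIP library for each of 4 groups: sham-operated hearts, hearts with MI, hearts with MI labelled aavgnp and hearts with MI labelled aavFto. The aavgnp and aavFto hearts thus share the infarct and differ in what the label names. The sources used here do not give the promoter, serotype and dose behind these names, or the number of animals per library.

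With 1 pair of libraries per group no difference has a replicate check. The p-values and false discovery rates (FDR) are the authors', and they compare libraries and not conditions. The log2 change of a peak was read as MI over sham and as aavFto over aavgnp, from the order of the names of the tables. If a table was made the other way round, all its directions turn. Read depth is unknown, and the exact intervals given for shares of peaks cover the counting of rows alone.

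m6A is placed on mRNA by a nuclear methyltransferase complex that recognises a short motif around GGAC, and the demethylase FTO takes it off again. The mark is known to be denser in long exons and around stop codons than in the middle of transcripts rich in short exons. Pulled-down fragments come from spliced RNA, so a stretch of enriched transcript that crosses a splice junction lies on the genome as separate blocks with an intron between them. A peak with several blocks is therefore a description of a length of transcript and not of a single modified base.

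Bases could be read for a stretch of 1 block that belongs to a multi-block peak of Myh7, the slow myosin heavy chain, in both tables. It is shown because the 2 tables draw the peak to different ends. The block started at the same base on the 5′ side in both. It was 116 nt in the 4-block peak of the MI table (chr14:54975960-54976075, minus strand, GRCm38.p6, the assembly of mm10) and 197 nt in the 7-block peak of the aavFto table (chr14:54975879-54976075). RefSeq's promoter entries for Gm31251, a lncRNA on the other strand, hold 111 and 192 of these bases. On the Myh7 strand GGAC was found 0 times in the 111 bases and 2 times in the 192, both within the 81 bases that the aavFto table adds. On the other strand it was found 2 times in either stretch. Of 32851 promoter entries, 74.1% hold GGAC on either strand in their first 192 bases. The first line gives the last 29 bases of the block as the MI table draws it (chr14:54975960-54975988). The other lines give the added GGAC matches, in capitals, which begin 27 and 57 bases past that end (chr14:54975917-54975945 and chr14:54975887-54975915).
End of the MI-table block: aaggctgagctacagcgagtcctgtccaa
First GGAC past it: tggcccagtggaGGACcaagtatgagacg
Second GGAC past it: atgccatacagaGGACagaggagctggag
A match is a string of letters and not a measured site, since the peaks do not resolve single bases.

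Most of these peaks crossed 1 or a few gaps, and a small number crossed many. In the MI table, 24 had 2 blocks, 16 had 3, 6 had 4 and 3 had 5. The 3 with 5 blocks lay in Atp2a2, Sparc, which encodes a collagen-binding matrix protein, and Ptms, which encodes parathymosin. In the aavFto table, 101 had 2 blocks, 54 had 3 and 23 had 4, and the counts reached 45 in Col1a1 and 43 in Col3a1, chains of type I and type III collagen. Next came 32 blocks in Mybpc3, cardiac myosin binding protein C, 17 in Tnnt2, cardiac troponin T, 13 in Col6a2, 12 in Myh6, the fast cardiac myosin heavy chain, and 11 in Myh9, a nonmuscle myosin.

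The summed length of the blocks had a median of 240 nt in the MI table (interquartile range 150 to 330, from 60 to 830 nt) and of 267 nt in the aavFto table (151 to 471.5, from 60 to 3923 nt). Single-block peaks had medians of 121 and 151 nt. Nppa, which encodes atrial natriuretic peptide, carried the longest peak of the MI table, at 830 nt over 3 blocks. The same 830 nt in 3 blocks were listed in the aavFto table. The longest of the aavFto table were Col1a1 at 3923 nt, Mybpc3 at 3564 nt, Col3a1 at 3082 nt, Myh6 at 2095 nt and Des, which encodes desmin, at 2083 nt. Peaks with exactly 2 blocks, just inside the rule, had median lengths of 151 and 175 nt.

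**Figure D1:**
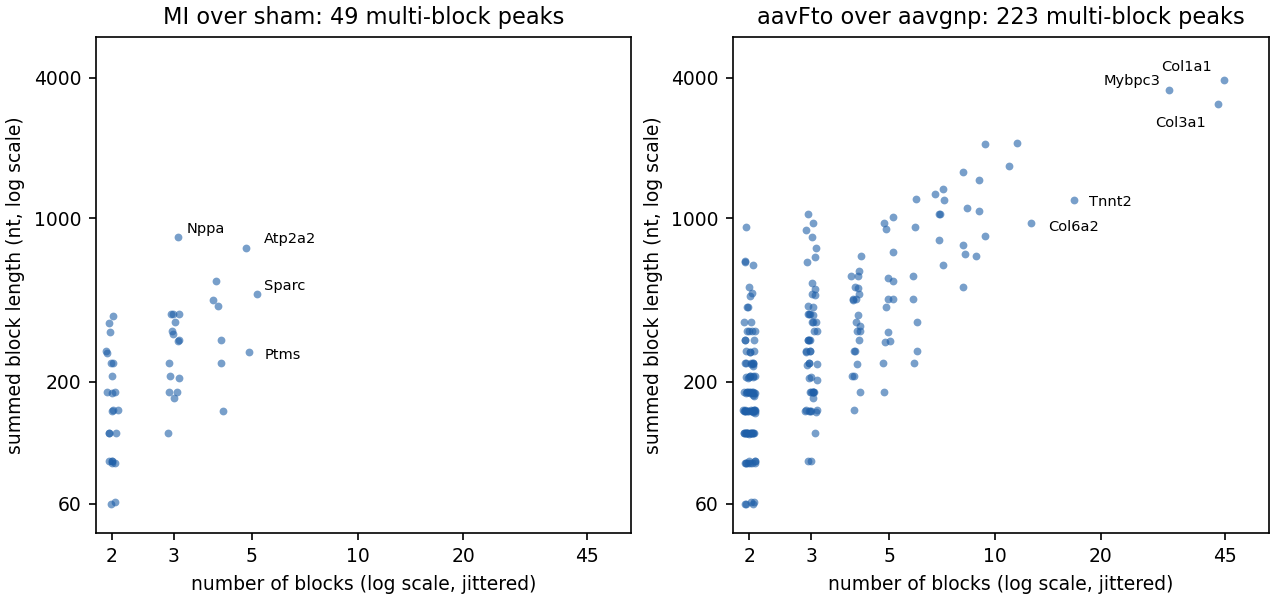
Number of blocks (x axis, log scale, points shifted slightly sideways) against summed block length in nt (y axis, log scale) for each multi-block peak, with the MI table on the left and the aavFto table on the right. No peak of the MI table has more than 5 blocks, and the aavFto table reaches 45 blocks and 3923 nt in Col1a1.

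Block lengths followed a regular step. Summed length lay within 1 nt of a multiple of 30 nt in 37 of 49 multi-block peaks of the MI table (75.5%) and 156 of 223 of the aavFto table (70%), and in 94% and 93% of single-block peaks. Most lengths were thus near a multiple of 30 nt. Some peaks had a second block of a few bases. The second-largest block was under 10 nt in 5 of 49 and in 15 of 223 peaks, and under 50 nt in 21 of 49 and in 80 of 223. In App, the amyloid precursor protein gene, the MI table lists 181 nt of which 2 nt lie beyond an intron of 23313 nt.

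Gaps between blocks were intron-sized with 2 exceptions. The largest gap of a peak had a median of 856 nt in the MI table and 893 nt in the aavFto table, and the longest, 44304 nt, was in Col4a2. The exceptions were 2 aavFto-table peaks without a gene ID on chromosome 17, at 39846483 to 39846819 and at 39847898 to 39848199, with gaps of 6 and 1 nt. They lie at Rn18s-rs5, a copy of the ribosomal RNA locus, and go against the description of a peak over several exons.

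Where a block had a neighbour on either side, its length could be compared with the known build of a gene. Fibrillar collagens are known for triple-helix exons of 54 nt or other multiples of 9 nt, each coding for whole Gly-X-Y repeats. In the aavFto table, 55 of 147 inner blocks of collagen genes were 54 nt long (37.4%), 19 were 108 nt, 15 were 45 nt and 13 were 99 nt. Of the 282 inner blocks of other genes 3 were 54 nt long (1.06%). Lengths divisible by 9 made up 83.7% of the collagen inner blocks and 17% of the others. Col3a1 had 42 such blocks of 43, Col1a1 42 of 47, and Col6a2, a chain of type VI collagen, 10 of 12. Col4a1, a chain of the network-forming type IV collagen, had 8 of 17, and Col4a2 had 4 of 9. In Myh7, Myh6 and Mybpc3 the inner blocks were longer, with medians of 177, 136 and 118 nt, and in Tnnt2 the median was 52 nt.

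Along the gene, multi-block peaks lay further from the 3′ end than single-block peaks. Their centres stood at a median of 75.3% of the gene span in the MI table and 73.7% in the aavFto table, counted from the 5′ end, against 92.2% and 88.7% for single-block peaks. A peak of 2 or more blocks crosses a gap and cannot lie wholly within the last exon, so part of this order may follow from the rule. The gene span used here includes introns. This comparison was not tested, as peaks of a gene share their transcript and libraries. Over 75% of the gene span was crossed by 2 of the 48 MI-table peaks that have an ID, Nppa at 97.8% and Ptms at 79.2%, and by 16 of 220 in the aavFto table. Among these were Tnnt2 at 99.5%, Myl3, an essential myosin light chain, at 98.4%, Actc1, cardiac actin, at 97.8%, Tcap, the cap protein of titin, at 97.4%, and Mybpc3 at 93.7%. A span crossed is not a transcript covered, since gaps count in it. Chmp4b crossed 85.5% with 150 nt in 2 blocks, and the 43-block peak of Col3a1 crossed 53.9%. Peaks reached the annotated start of 4 genes in the aavFto table, Nppa, Tpm1, Crip2 and Ankrd1, and of Nppa in the MI table.

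Enrichment over input was moderately higher in these peaks than in single-block peaks, and their p-values were smaller. The authors' deposited tables gave median fold enrichments of 70.2 in the MI table and 58.5 in the aavFto table, against 62.6 and 52.1 for single-block peaks. The median log10 p was -7.21 (range -14 to -4.55) in the MI table and -6.21 (-38.5 to -3.54) in the aavFto table, against -5.25 and -4.88. Of the multi-block peaks 28.6% and 29.1% were in the strongest of 5 groups of all peaks ranked by log10 p, against 14.9% and 11.6% of single-block peaks. Across peaks, the Spearman rho of summed length with log10 p was -0.80 over 49 peaks and -0.84 over 223, so longer peaks had smaller p. These points share 4 libraries per table, and the part of read number in this relation was not tested.

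The smallest p and the highest fold enrichment did not always fall on the same peaks. In the authors' deposited table the Myh6 peaks of 12 and 9 blocks had log10 p of -36.2 and -33.8 at fold enrichments of 24.1 and 16.5, and Tpm1, tropomyosin, had -31.5 at 18.7. Sparc, at a fold enrichment of 144 per the authors' deposited table, had a log10 p of -14.2. The Col1a1 peak of 45 blocks combined a fold enrichment of 118 with the smallest p of the authors' deposited table, a log10 of -38.5.

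In MI against sham 12 of the 49 multi-block peaks passed an FDR of 0.05 (24.5%), 10 up and 2 down. Over all listed peaks 14.7% passed, 12.9% up and 1.72% down, and of single-block peaks 5 of 67 passed (7.46%). Peaks of Myh7, Nppa, Ankrd1, Col1a1 and Col3a1 rose, and peaks of Atp2a2 and Myh6 fell. Since 5 of the 12 lay in Myh7, the count without Myh6, Myh7 and Mhrt was 6. In bulk tissue fewer cells of a type and less RNA per cell cannot be told apart, and the transcript level of these genes was not analysed here. An unadjusted p of 0.05 was passed by 17, 14 up and 3 down, against 25.9% of all listed peaks.

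The median log2 change of the multi-block peaks was 2.04 (interquartile range 1.12 to 3.29), with 39 positive and 10 negative. The positive share was 79.6% (exact 95% interval 65.7 to 89.8), against 84.5% over all listed peaks. This table lists no peak with an absolute log2 change under 1.01, so small changes are not represented. Both peaks that passed downward had several blocks, and 10 of the 18 negative peaks of the table did. Multi-block peaks made up 49 of all 116 listed peaks, and Mybpc3, Atp2a2 and Atp5b each held more than 1 of the 10. Peaks with exactly 2 blocks had a median of 2.32 and a positive share of 95.8%, those with 3 or more a positive share of 64%.

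The sarcomere list held 13 of these peaks in 6 genes, 9 positive and 4 negative, and 6 rose and 1 fell. The 6 are 5 peaks of Myh7 and the peak of Ankrd1, which is also in the fetal and hypertrophic list and is described with it. Myh7, whose slow heavy chain is typical of the fetal mouse heart, had 6 multi-block peaks of 91 to 420 nt. In the authors' deposited table, 5 of them passed, at 4.35 (FDR 1.26e-05), 3.91 (FDR 8.13e-04), 3.80 (FDR 8.91e-05), 3.63 (FDR 4.79e-04) and 2.70 (FDR 0.038). The 6th stood at 4.42 with an FDR of 0.497, and its second block was 3 nt long. Myh6, the heavy chain of the adult mouse ventricle, fell by 2.56 (FDR 0.0269) over 390 nt in 3 blocks per the authors' deposited table. Mybpc3 stood at -2.13, -1.87 and -1.51 per the authors' deposited table at 3 peaks of 3 blocks each, with FDRs from 0.643 to 0.731. Myh6 and Myh7 are close paralogs, and a Myh7 peak shared 102 nt with a Mhrt peak on the other strand, so the split of reads among them is uncertain.

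Of the fetal and hypertrophic list, Nppa and Ankrd1 each had 1 multi-block peak with an ID. Nppa, a hormone gene of the atrium and of the stressed ventricle, had the smallest enrichment p of the MI table, a log10 of -14, and rose by 4.52 (FDR 9.12e-06) per the authors' deposited table. A peak without an ID on the other strand, at chromosome 4 from 148001026 to 148001656, shared 327 nt with it and rose by 4.39 (FDR 0.00234) per the authors' deposited table. On the Nppa strand a single-block peak without an ID shared 368 nt with that peak, also at 4.39. In the aavFto table such a pair shared 604 nt, both at -0.135, per the authors' deposited table. If the library preparation did not keep the strand, overlapping peaks on the 2 strands would hold the same reads, which was not tested. Nppa and the peak opposite to it are counted apart among the 12 past the FDR. Ankrd1, a stretch-responsive protein of the titin spring, rose by 2.40 (FDR 4.79e-04) over 449 nt in 4 blocks, per the authors' deposited table.

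Matrix genes held 7 multi-block peaks in 6 genes, all positive, and 2 rose. Over all listed peaks 84.5% were positive and 12.9% passed upward, so the signs of 7 peaks are near the background. Across the 6 genes, each by its strongest peak, the median was 4.97, against 1.85 over all 34 genes with such a peak. Col1a1 rose by 4.31 (FDR 2.09e-09) over 361 nt and Col3a1 by 7.17 (FDR 0.0141) over 180 nt, in 3 blocks each, per the authors' deposited table. The other Col3a1 peak stood at 5.46, Col1a2 at 5.64 and Postn, which encodes periostin, at 6.58 per the authors' deposited table, with FDRs of 0.328, 0.318 and 0.2. Sparc, at 3.26, had an FDR of 0.0851 per the authors' deposited table. The fibroblast marker list had multi-block peaks in 5 of its 17 genes, all 7 of them positive, and 4 of these 5 genes are also in the matrix list. Macrophage markers were represented by Ctsd at 2.16, with an FDR of 0.741 per the authors' deposited table, and endothelial and erythroid markers by no multi-block peak. A listed peak of any kind was found in 2 of 12 endothelial and 0 of 5 erythroid genes. The part of a changed cell make-up in these values was not tested.

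Calcium handling was represented by Atp2a2 alone, the gene of the SERCA2a pump that refills the sarcoplasmic reticulum. Its peak of 2 blocks and 211 nt fell by 3.93 (FDR 0.0288), and its peak of 5 blocks and 750 nt stood at -1.18 (FDR 0.328), per the authors' deposited table. Of 8 peaks in the genes of the mitochondrial and fatty acid list 4 were positive and 4 negative, and 0 passed. The list is not complete: Ndufb7 at 1.12, Ndufb9 at 1.07 and Chchd10 at 1.07 per the authors' deposited table, also genes of mitochondrial proteins, are outside it. Atp5b, the beta subunit of ATP synthase, differed within itself. The authors' deposited table gave -1.40 and -1.48 at its upstream peaks of 4 and 3 blocks and 1.54 at the downstream peak of 2 blocks, with an FDR of 0.741 for each. Ogdh, a subunit of the oxoglutarate dehydrogenase complex, stood at -1.93 and Cox7a1, of cytochrome oxidase, at -1.33 per the authors' deposited table, against 1.98 for Fabp4 and 1.42 for Cox6a2. The 11 genes in none of the lists were all positive, from 1.07 in Chchd10 and Ndufb9 to 3.29 at a Myh9 peak per the authors' deposited table, and none passed. Over all listed peaks 84.5% were positive and 14.7% passed, so counts this small are near the background here and in the mitochondrial list's calls.

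In aavFto against aavgnp 7 of the 223 multi-block peaks passed an FDR of 0.05 (3.14%), 7 up and 0 down. Over all listed peaks 1.72% passed, 1.72% up and 0% down, and of single-block peaks 1 of 242 passed (0.413%). The 7 rose in Tnnt2, Myh6, Mybpc3, Myl2, Tcap and at the ribosomal RNA locus. At an unadjusted p of 0.05 the count was 19, 17 up and 2 down, against 4.3% of all listed peaks. The 2 down were the 43-block peak of Col3a1, at -0.67 (p 0.0447), and Tmsb4x, thymosin beta 4, at -1.35 (p 0.049), per the authors' deposited table.

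Signs were 100 positive and 123 negative, around a median log2 change of -0.29 (interquartile range -0.82 to 0.62). The positive share was 44.8% (exact 95% interval 38.2 to 51.6), against 32.7% over all listed peaks and 21.5% of single-block peaks. It rose with the number of blocks, from 34.7% with 2 to 44.4% with 3, 56.5% with 4 and 62.2% with 5 or more, and the median change from -0.65 to 0.38. Length and strength moved along the same order. The median summed length was 175 nt with 2 blocks and 839 nt with 5 or more, and the median log10 p was -5.27 and -10.3. Among the 143 peaks whose second-largest block had at least 50 nt the median change was 0.26 and the positive share 58.0%, so the sign of the median rests on the peaks with short second blocks.

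**Figure D2:**
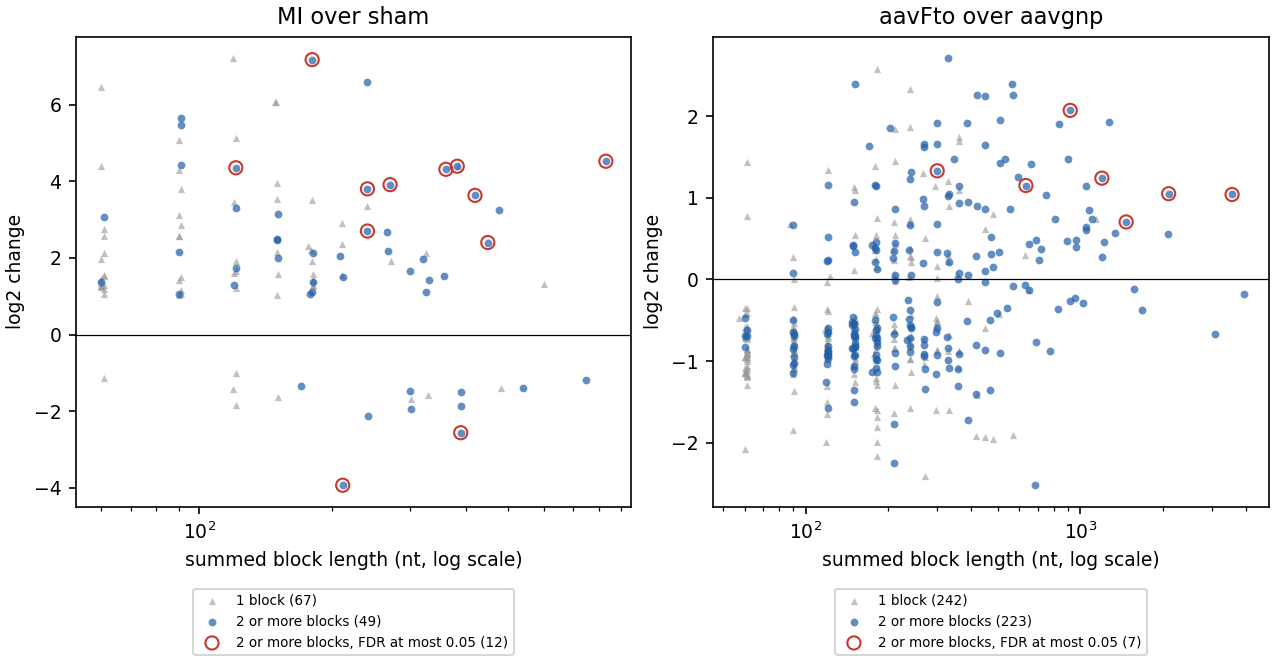
Log2 change (y axis) against summed block length in nt (x axis, log scale) for single-block peaks (grey triangles) and multi-block peaks (blue points) of each table, with multi-block peaks at an FDR of at most 0.05 ringed in red. The 7 ringed peaks of the aavFto table are all above 0 and at least 301 nt long, and the 12 of the MI table run from 121 to 830 nt.

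The sarcomere list held 37 multi-block peaks in 22 genes, 31 positive and 6 negative, and 6 rose. By each gene's strongest multi-block peak 21 of the 22 were positive with a median of 0.67, against 69 positive of 150 genes and a median of -0.24 over all genes with such a peak. Nrap counts as positive by a peak at 0.90 (log10 p -5.02), and its other peak stood at -0.91 (log10 p -5.01), per the authors' deposited table. Thin filament genes were led by Tnnt2, whose troponin T anchors the calcium switch to tropomyosin. The authors' deposited table gave it 1.24 (FDR 1.58e-11) over 1197 nt in 17 blocks. The troponin I gene Tnni3 stood at 0.23, the troponin C gene Tnnc1 at 0.86, Actc1 at 0.57 and the strongest Tpm1 peak at 0.49 per the authors' deposited table, none past the FDR.

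Among thick filament genes, Myh6 rose by 1.05 (FDR 8.13e-10) over 2095 nt in 12 blocks and by 0.70 (FDR 0.00214) over 1467 nt in 9 blocks per the authors' deposited table. Its 3 other multi-block peaks stood at 1.43, 1.90 and 2.25 per the authors' deposited table, with larger changes and weaker enrichment p (log10 p -10.2, -13.9 and -7.29) and FDRs of 0.713, 0.235 and 0.596. Mybpc3 rose by 1.04 (FDR 0.0309) over 3564 nt, and Myl2, the regulatory light chain of the ventricle, by 1.15 (FDR 0.00646) over 633 nt in 7 blocks, per the authors' deposited table. Myl3 stood at 0.73 (p 0.0457, FDR 0.713) over 808 nt per the authors' deposited table. Myh7 had 5 multi-block peaks from -0.84 to 1.47 per the authors' deposited table, and none passed.

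At the Z-disc, the anchor of the thin filaments, Tcap rose by 2.07 (FDR 0.0309) over 918 nt in 2 blocks per the authors' deposited table. Des stood at 0.55, and Actn2, the cross-linker alpha-actinin, at 0.74, 0.29 and -0.93 per the authors' deposited table. Ldb3, another Z-disc gene, was the gene of the sarcomere list whose strongest peak was negative, at -0.72 per the authors' deposited table. Outside the list, Ankrd23, a relative of Ankrd1, stood at -0.94 and Myo18b, a myosin of striated muscle, at -1.06 and -0.97 per the authors' deposited table. The remaining peak past the FDR had no ID. It lay at the ribosomal RNA locus on chromosome 17 from 39847898 to 39848199 and rose by 1.33 (FDR 3.02e-05), and its neighbour from 39846483 to 39846819 stood at 1.05 (FDR 0.0891), per the authors' deposited table. These are the peaks with gaps of 1 and 6 nt, and without them 6 multi-block peaks passed.

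The matrix list held 46 multi-block peaks in 18 genes, 9 positive and 37 negative, and 0 passed. Over all listed peaks 32.7% were positive and 1.72% passed, so the 0 is near the background, and of all multi-block peaks 44.8% were positive. The median over these peaks was -0.74. The collagens varied within 1 gene. Col4a2 had 9 peaks from -0.89 to 0.89, Col4a1 7 from -1.72 to 0.67 and Col1a2 6 from -1.10 to 0.050 per the authors' deposited table. Col1a1 had -0.18 over 45 blocks and 1.65 over the 6 blocks upstream of it, with FDRs of 0.713, per the authors' deposited table. Serpinh1, a collagen chaperone, had the most negative change, -2.52 (FDR 0.713) over 686 nt, and Fn1, fibronectin, stood from -1.50 to -0.35 at 4 peaks, per the authors' deposited table. Fibroblast markers had 3 positive and 14 negative peaks in 9 of 17 genes. The most negative of them was Fstl1 at -2.25 (FDR 0.713) per the authors' deposited table. Macrophage markers had 3 positive and 3 negative peaks in 5 of 18 genes, from -0.83 to 1.14, and endothelial and erythroid markers had no multi-block peak. A listed peak of any kind was found in 3 of 12 endothelial and 1 of 5 erythroid genes. The part of a changed cell make-up was not tested here either.

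Metabolic and other genes gave 0 peaks past the FDR, against 1.72% of all listed peaks. In 15 genes of the mitochondrial and fatty acid list 15 peaks were positive and 9 negative. Outside the list, 4 other genes of mitochondrial proteins were positive and 7 negative. Of these, per the authors' deposited table, Ndufb7 (1.92), Atp5g3 (1.85), Ndufb10 (1.47) and Chchd10 (0.94) were positive. Ndufb9 (-0.47), Atpif1 (-0.56), Atp5e (-0.65), Vdac1 (-0.67), Ndufa10 (-0.72), Atp5d (-1.13) and Oxct1 (-1.14) were negative per the authors' deposited table. The largest positive change of the multi-block peaks, 2.71 (p 0.0355, FDR 0.713), was at an Atp5b peak of 2 blocks, and the other 3 Atp5b peaks stood at 1.02, 1.15 and 1.66 per the authors' deposited table. Ckm, the muscle creatine kinase, stood at 1.93 over 1268 nt per the authors' deposited table. The Ckm peak shared bases with peaks of A930016O22Rik on the other strand. Atp2a2 was positive at its 3 multi-block peaks, 1.14, 1.91 (p 0.049) and 2.39, with FDRs of 0.713 per the authors' deposited table, and Ryr2, the calcium release channel, stood at -0.93. Of the stress list 1 peak was positive and 5 negative, with Hsp90ab1, a cytosolic chaperone, at 2.26 (FDR 0.596) and Lamp1, a lysosomal membrane protein, at -1.77 (FDR 0.713) per the authors' deposited table. Translation genes had 5 positive and 3 negative peaks, led by Eef1a2, the elongation factor of muscle and neurons, at 2.39 over 564 nt per the authors' deposited table. Of the m6A machinery no gene had a multi-block peak in either table. Of its 21 genes 0 had any listed peak in the MI table and 1 in the aavFto table. The 71 genes in none of the lists had 24 positive and 47 negative changes with a median of -0.56.

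Multi-block and single-block peaks were then compared within groups of enrichment strength. All aavFto-table peaks were put in order of enrichment p and cut into 5 groups of 93. In the strongest group the positive share was 64.6% of 65 multi-block peaks (exact 95% interval 51.8 to 76.1) and 60.7% of 28 single-block peaks (40.6 to 78.5). In the second group it was 58.2% of 55 (44.1 to 71.3) and 34.2% of 38 (19.6 to 51.3). In the other 3 groups it was 35.6%, 13.2% and 25% of multi-block peaks and 20.8%, 10.9% and 8.22% of single-block peaks. The multi-block share was the higher in each of the 5 groups, with intervals that overlap in each. All 7 multi-block peaks past the FDR were in the strongest group. Strength still differed within it, as log10 p reached -38.5 in multi-block and -22.6 in single-block peaks. In the MI table the strongest group had 71.4% of 14 and 60% of 10 positive, and the second 66.7% of 15 and 75% of 8, so the order was not the same in both.

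**Figure D3:**
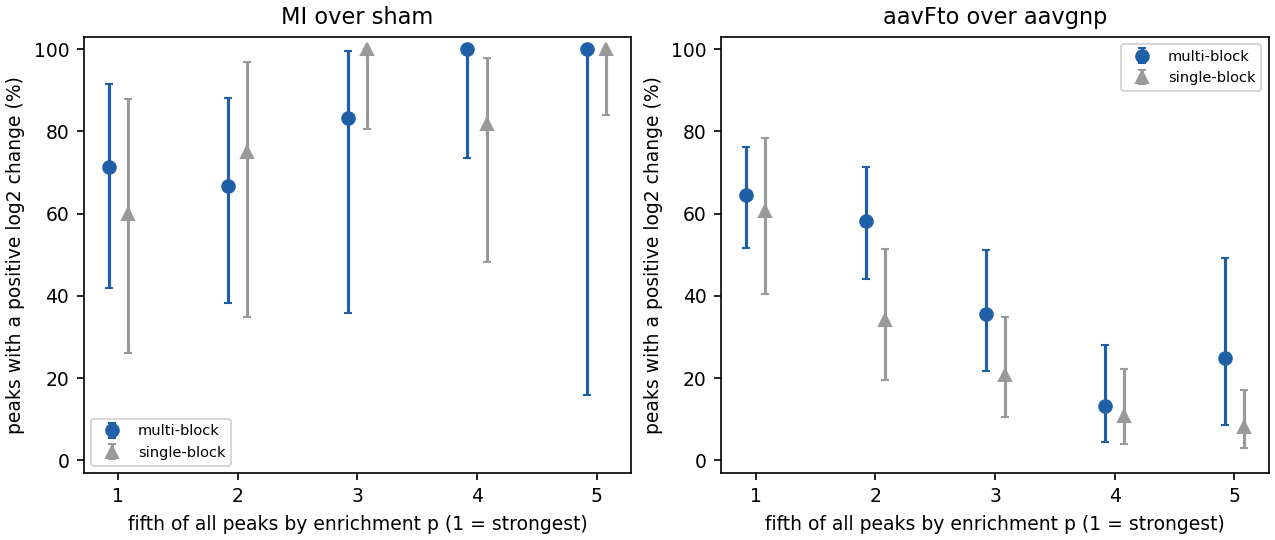
Percent of peaks with a positive log2 change (y axis) in 5 groups of all peaks ranked by enrichment p (x axis, 1 is the strongest), for multi-block (blue) and single-block (grey) peaks, with exact 95% intervals. In the aavFto table both kinds fall from over 60% to 25% or less, and in the MI table both lie at 60% or more in every group.

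Genes with both kinds of peak gave a comparison within the same transcript. In the aavFto table, 40 genes had both. The strongest multi-block peak had the higher change in 22 of them and the strongest single-block peak in 18, with medians of -0.0087 and -0.20 and a median difference of 0.14. The signs differed in 20 of the 40. Hspb7, a small heat shock protein of the heart, had -0.23 at a 953-nt peak and 1.30 at a 268-nt single block, and Nrap, a Z-disc assembly protein, had 0.90 and -1.18, per the authors' deposited table. The choice in Nrap was a near tie, as its other multi-block peak stood at -0.91 with a log10 p of -5.01 against -5.02. In the MI table, 7 genes had both, with the multi-block peak higher in 3, medians of 2.40 and 2.75, and no difference in sign. The gap between the 2 kinds over all aavFto-table peaks, -0.29 against -0.71, was larger than the median difference within genes, and neither was tested.

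Most multi-block peaks of the MI table overlapped peaks of the aavFto table, often longer ones. The 2 comparisons share no library. Of the 49 multi-block peaks of the MI table, 46 (93.9%) overlapped a multi-block peak of the aavFto table on the same strand, 2 overlapped a single-block peak and 1, in Ndufb9, overlapped none. Overlap with any aavFto-table peak was near that of the whole table, at 98% of multi-block, 91% of single-block and 94% of all 116 MI-table peaks. An aavFto-table multi-block peak was met by 34.3% of the 67 single-block MI peaks. Seen from the aavFto table, 40 of 223 (17.9%) had such a partner. The genes overlapped likewise, 32 of 34 MI genes (94.1%) and 32 of 150 aavFto genes (21.3%). All bases of 33 MI peaks lay inside 1 aavFto peak, and for 20 of them that peak was at least 2 times as long. In Myh9, 3 peaks of 61, 151 and 121 nt lay within 1 aavFto peak of 1679 nt, and 2 Clu peaks of 208 and 150 nt within 1 of 1573 nt. In Mybpc3, 2 peaks of 241 and 390 nt lay within the peak of 3564 nt.

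**Figure D4:**
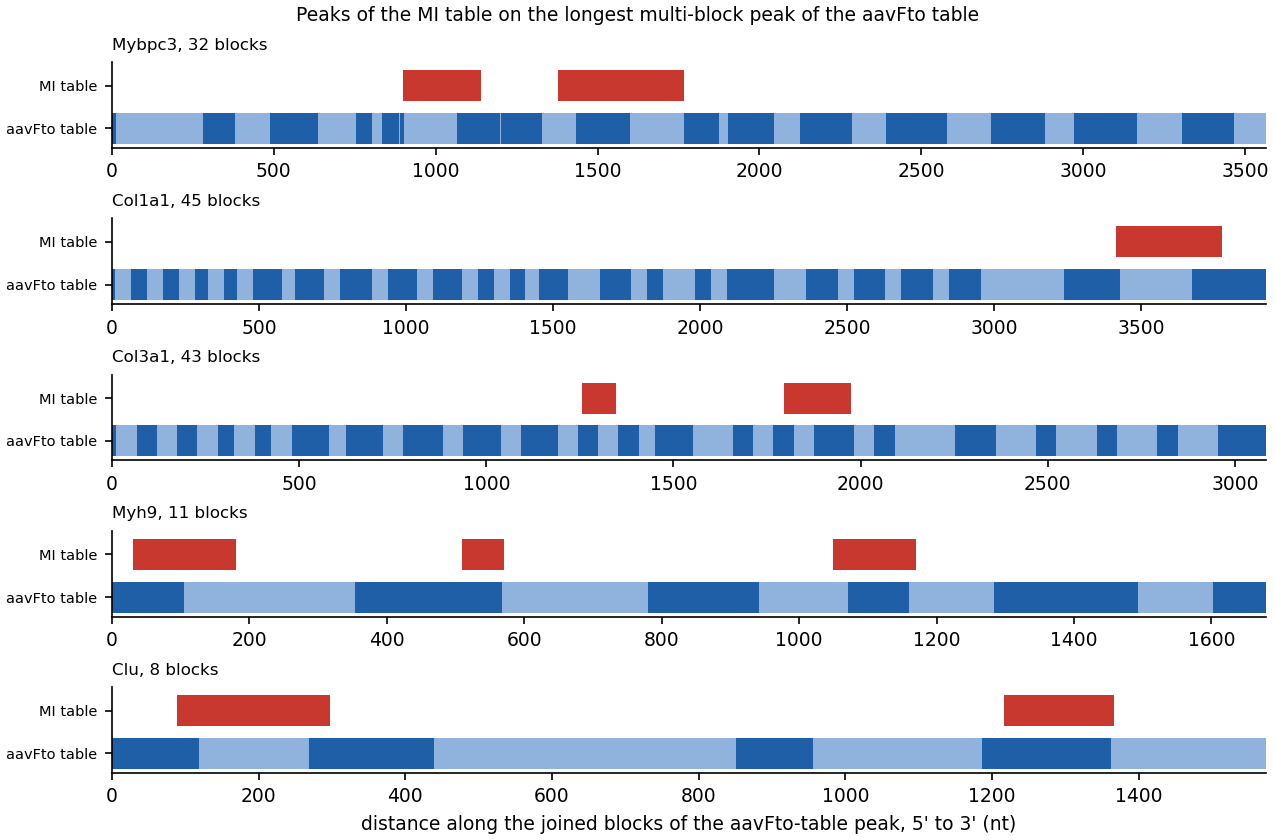
Position of MI-table peaks (red) along the joined blocks of the longest aavFto-table peak of 5 genes (alternating blues mark its blocks), as distance in nt from its 5′ end. The MI-table peaks cover short stretches, such as 361 nt of the 3923 nt in Col1a1 and 180 and 91 nt of the 3082 nt in Col3a1.

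The 46 shared peaks were set side by side, each with the aavFto peak that shares most of its bases. An aavFto peak can be the partner of several MI peaks, so the pairs are not independent. The Actn2 pair shares 1 nt, and 44 of the 49 overlapped by at least 50% of the shorter peak. Of the 10 that were negative after MI 9 had a positive partner, with medians of -1.69 and 1.33. The 10 lay in Mybpc3, Atp2a2, Atp5b, Myh6, Ogdh and Cox7a1, the first 3 genes with more than 1 peak each. Over all 46 the median change of the partner was 0.375. Of the 36 that were positive after MI 19 had a positive and 17 a negative partner, with medians of 2.58 and 0.20. Both peaks that fell after MI had positive partners that did not pass. For Atp2a2 -3.93 (FDR 0.0288) over 211 nt stood beside 2.39 (FDR 0.713) over 151 nt, and for Myh6 -2.56 (FDR 0.0269) over 390 nt beside 2.25 (FDR 0.596) over 449 nt, per the authors' deposited tables. Mybpc3, at -2.13 and -1.51 after MI, had the partner that rose by 1.04 with aavFto, per the authors' deposited tables. Its remaining pair set -1.87 (FDR 0.731) after MI beside 0.055 (FDR 0.713) with aavFto, over 360 shared nt, by the authors' deposited tables.

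Of the 10 that rose after MI, 6 had a positive partner and 4 a negative one, and none of the 10 partners passed. The 4 negative partners were those of Col1a1 (4.31 and -0.18), Col3a1 (7.17 and -0.67), Nppa (4.52 and -0.36) and the peak without an ID opposite to Nppa (4.39 and -0.14), per the authors' deposited tables. Ankrd1, at 2.40, had a partner of 9 blocks at 0.86, and the 5 Myh7 peaks had partners from 0.28 to 1.47, per the authors' deposited tables. Ptms kept nearly the same 5 blocks, 267 and 297 nt, and stood at 2.19 (FDR 0.741) and -1.16 (FDR 0.713) per the authors' deposited tables. Golga4, a golgin, kept 4 blocks of 300 and 270 nt and stood at 1.65 and 1.62 per the authors' deposited tables, with neither past the FDR. The values rest on the assumed sign of each table.

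**Figure D5:**
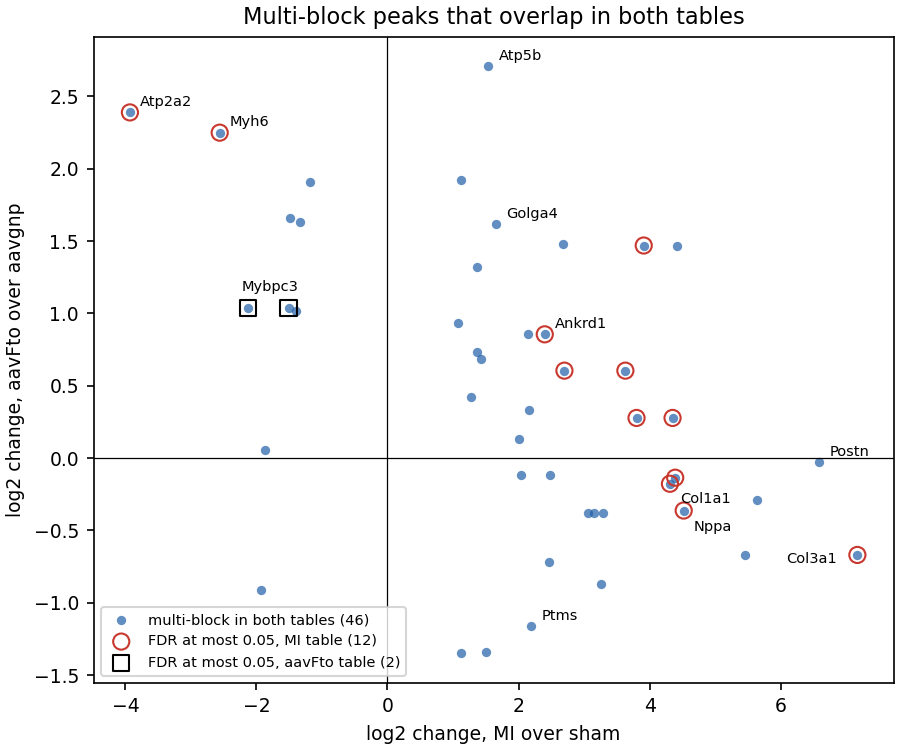
Log2 change with aavFto (y axis) against log2 change after MI (x axis) for the 46 multi-block peaks of the MI table that overlap a multi-block peak of the aavFto table. Red rings mark 12 peaks past the FDR after MI and black squares 2 Mybpc3 points, which share the aavFto partner that rose by 1.04, and 9 of the 10 points left of 0 lie above 0.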

How the data were processed

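Libraries were made from 200 µg of left ventricular RNA per group, per the labels' protocols. STAR 2.5.3a is the aligner and mm10 the build that the submitters' processing notes name. For the peak caller, its thresholds and the library scaling, the sources used here give nothing. Per the file headers, the deposited tables give blocks, an enrichment p-value in the score column, log10 values of the enrichment p and FDR and of the differential p and FDR, a linear fold enrichment (ratio of MeRIP over input) and a log2 change.

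From these, block counts, summed lengths, gaps, medians and counts were computed with Python 3.11.15, pandas 2.3.3 and scipy 1.17.1. Single peaks were read as called at the authors' FDR of 0.05, and no test across peaks was run. Gene IDs of all 105 and 449 rows that carry one matched RefSeq symbols of GRCm38.p6. Overlap means at least 1 bp of shared blocks on the same strand. Of 12 gene lists each gene was represented by its multi-block peak of smallest enrichment p. The members and lists were chosen with earlier results of these data known. Per table, the genes named were those of peaks past the FDR, the 8 with most blocks, the 5 longest, strongest, most positive and most negative peaks, as many as 4 genes of each list and 12 genes found in both tables, and peaks without an ID. Other genes, named for their block structure, position, gaps, function, spread within a gene or pairing, were chosen after their values were seen. The overlap scripts were tested on simulated blocks. Alternatives changed the block minimum, block size, overlap, unit counted, strength and thresholds. Columns of the tables were assigned to comparisons and not to single samples. No genome or exon annotation was used, so a search for motifs over all peaks was not run. One of the genes that the rule names is not reported here.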

Additional observations from a re-analysis of the deposited data

How the results depend on the processing

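Requiring at least 3 blocks left 25 peaks of the MI table and 122 of the aavFto table. In the MI table it gave 6 peaks past the FDR in place of 12, a positive share of 64% in place of 79.6% and a median length of 301 nt in place of 240, and in the aavFto table a positive share of 53.3%, a median log2 change of 0.069, a length of 390 nt, 61.1-fold enrichment and a log10 p of -7.46. A second-largest block of at least 50 nt gave 311 nt and a log10 p of -7.91 (MI), and 58.0% positive, a median change of 0.26, 385 nt, 63.7-fold and -7.5 (aavFto). With an absolute change of at least 1, aavFto peaks had a positive share of 60%, a median change of 1.14, an absolute change of 1.34, 329 nt, 54.2-fold and a log10 p of -6.84. These 3 settings turned the aavFto positive share and median change from below to above even, by taking fewer and other peaks. With 1 peak per gene 5 passed after MI, and the aavFto median log10 p was -6.82. Without Myh6, Myh7 and Mhrt, a choice made after seeing the data, 6 passed after MI. An unadjusted p of 0.05 gave 19 in the aavFto table. The other 95 of 122 recomputed values kept their direction and stayed within their interval or within 1.5 times. Some of the 95 could not change. The MI table lists no absolute change under 1.01 and no multi-block peak with a gap under 50 nt, so limits on these removed nothing from it. No paired analysis was possible because each group has 1 library per kind. The depth of the libraries is unknown, so whether weak peaks could have shown smaller changes was not tested.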
